A study of Mus musculus with 2 samples.

Results

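The CIS and SOCS genes are a family of 8 members, Cish and Socs1 to Socs7, taken by their GENCODE M21 symbols from a table of 55536 annotated mouse genes. All 8 were matched. They were measured by polyA-selected RNA-seq in Treg cells, regulatory CD4 T cells that hold immune responses in check. The cells are primary cells labelled as 1 biosample of a male mouse aged 9 weeks, with no strain, treatment or sorting markers given in the labels. The 2 libraries are technical replicates 1 and 2 of that biosample and form 1 group, so there is no comparison between conditions, and the spread between them says nothing of other mice. They held 34697128 and 32049199 estimated counts over annotated genes.

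Cytokine receptors that use Janus kinases (JAKs) signal by phosphorylating STAT transcription factors, which then switch on, among other genes, those of the CIS and SOCS proteins. Each of these proteins has an SH2 domain, which binds phosphotyrosine, and a C-terminal SOCS box, which recruits elongins B and C and a cullin to form a ubiquitin ligase. CIS, SOCS1, SOCS2 and SOCS3 are the classical feedback inhibitors of cytokine signalling, and SOCS1 and SOCS3 also hold a short region that inhibits JAKs directly. SOCS4 to SOCS7 have longer N-terminal parts and are tied more to receptor tyrosine kinases. In Treg cells, which depend on interleukin 2 and STAT5, SOCS1 is known to be needed for their stability under inflammation.

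Sequences at the starts of Cish, Socs3 and Socs1, known as STAT and interferon targets, are shown first, since STAT and interferon factors are the known inducers of these genes. RefSeq windows on GRCm38.p6, 250 bases before to 50 bases after a gene's start, were given for Cish, Socs1, Socs3 and Socs4. Socs2, Socs5, Socs6 and Socs7 had no entry. Both strands were searched for STAT-type letters (TTCNNNGAA), STAT6-type letters (TTC and GAA with 4 bases between them), interferon regulatory factor (IRF) letters (GAAA, any 2 bases, then GAAA) and the GC box (GGGCGG). The Cish window holds a pair of STAT-type matches at and just after the RefSeq start, separated by 2 bases (chr9:107296654-107296683, plus strand, STAT-type matches in capitals).
Cish: cagttTTCCTGGAAagTTCTTGGAAatctg
Socs3, which has 1 STAT-type match beginning 154 bases before its RefSeq start, is shown over the 250 bases before that start (chr11:117969367-117969616, minus strand, match in capitals).
Socs3: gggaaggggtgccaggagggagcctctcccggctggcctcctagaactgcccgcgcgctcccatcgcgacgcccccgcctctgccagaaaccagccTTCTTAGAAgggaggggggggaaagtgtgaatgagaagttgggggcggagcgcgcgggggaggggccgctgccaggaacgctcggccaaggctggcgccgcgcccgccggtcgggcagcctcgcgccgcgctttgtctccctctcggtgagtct
The 250 bases before the Socs1 start (chr16:10785537-10785786, minus strand) hold no STAT-type match but 2 overlapping IRF matches, beginning 83 and 77 bases before the start and in capitals here.
Socs1: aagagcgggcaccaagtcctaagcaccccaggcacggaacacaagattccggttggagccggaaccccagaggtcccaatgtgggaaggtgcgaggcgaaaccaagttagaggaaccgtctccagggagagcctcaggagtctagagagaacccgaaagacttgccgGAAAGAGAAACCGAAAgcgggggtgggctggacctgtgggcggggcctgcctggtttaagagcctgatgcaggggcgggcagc

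STAT-type letters stood in 2 of the 4 member windows and in 8.30% of all 32851 windows in the table, and at least 2 such matches stood in 0.457% of all windows. IRF letters stood in 1 of the 4 and in 3.44% of all windows. The GC box stood in all 4 members' windows and in 35.7% of all windows, and STAT6-type letters in 0 of the 4 and in 6.95%. These matches describe letters in a window and show no binding. The annotated starts of Cish differ in their place relative to the STAT-type pair. Its first match begins 51 bases upstream of the start of transcript Cish-204, and it lies inside the first exon of Cish-201, which begins 633 bases upstream of it.

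A microRNA site is shown for Socs1 because miR-155, which FOXP3 is known to induce, is known to repress SOCS1 in Treg cells. The mature sequence from RefSeq has its seed, bases 2 to 8, in capitals, and the Socs1 site has the reverse complement of that seed, AGCATTA, in capitals (chr16:10784205-10784229, minus strand, GRCm38, from GENCODE transcript Socs1-202).
mmu-miR-155-5p: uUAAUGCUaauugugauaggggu
Socs1 site: gctgccgctgtgccgcAGCATTAag
The site begins after the first 19 bases of the 3′ untranslated region. The search took each gene's longest 3′ region among transcripts with the consensus (CCDS) coding sequence. Among the 8 members, that of Socs1 and that of Socs6 held 1 such match each and the other 6 held 0. Of 19759 genes, 8.16% held at least 1. The host transcript of the microRNA, Mir155hg, had levels of 10.94 and 12.43 TPM (library 1, then library 2, here and below). TPM counts transcripts on a fixed total and is corrected for length, so that levels can be compared between genes. These polyA-selected RNA libraries do not measure the mature microRNA itself.

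All 8 members were detected, that is, at 1 TPM or more in both libraries, against 48.0% of 22028 protein-coding genes (10583 genes). The members spanned a wide range, the highest exceeding the lowest 216-fold (library 1) and 114-fold (library 2), and divided into an upper and a lower set. Cish, Socs3, Socs1 and Socs2 together held 92.8% of the family's 624 TPM in library 1 and 92.2% of its 534 TPM in library 2. The lowest of these 4, Socs2, stood 4.82-fold and 4.79-fold above the highest of the others, Socs6, in the libraries. The family's median level was 54.4 TPM, beside 31.1 TPM for the detected protein-coding genes.

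**Figure D1:**
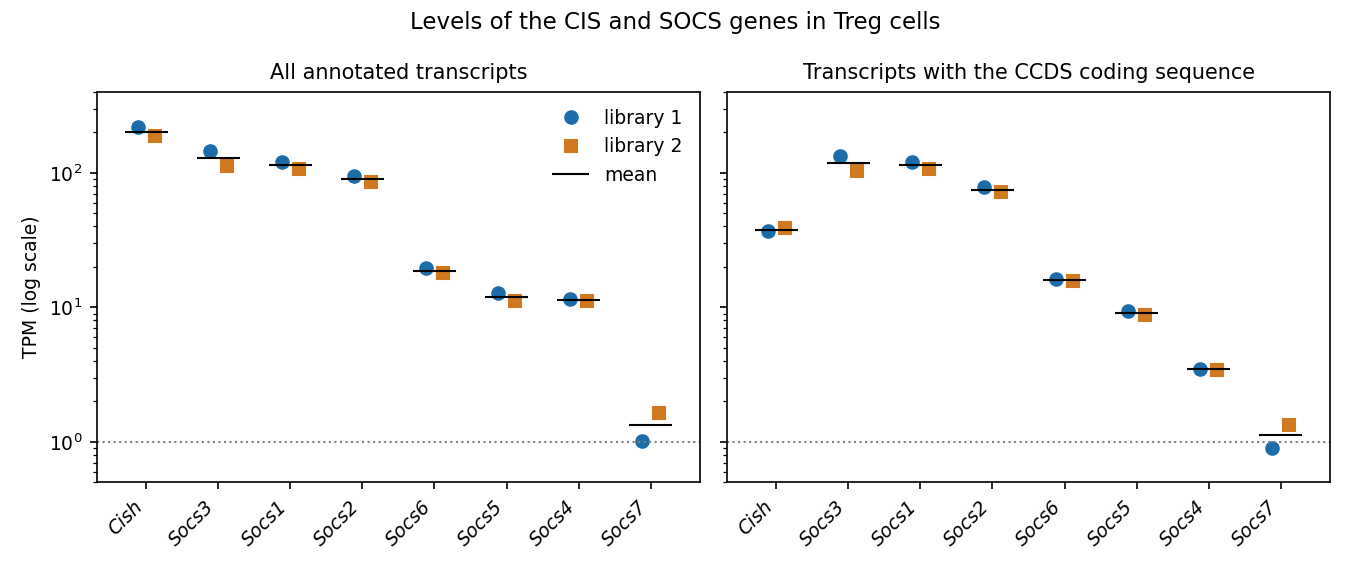
Levels of the 8 genes in TPM on a log axis, in library 1 (circles) and library 2 (squares), with the mean as a line and the detection minimum of 1 TPM dotted. The left panel sums all annotated transcripts of a gene, with Cish highest. The right panel sums transcripts that carry the consensus (CCDS) coding sequence, where Cish lies below Socs3, Socs1 and Socs2, at 37.0 and 38.7 TPM.

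Cish, which encodes CIS, a STAT5-induced inhibitor that docks on the interleukin 2 receptor, had 218.5 TPM in library 1 and 187.05 TPM in the other library (202.8 ± 22.2 TPM; errors throughout are SDs over the 2 technical libraries). It lies on chromosome 9 from 107296026 to 107302784 on the plus strand (GRCm38) and had the highest level of the family in both libraries. Its mean exceeded that of 92.8% of the detected protein-coding genes.

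Socs3, whose product binds receptors of the interleukin 6 type and inhibits their JAKs, stood at 145.28 and 112.26 TPM (129 ± 23.4 TPM). It lies on chromosome 11 from 117966079 to 117970047, on the minus strand. Library 1 was the higher, and the SD was the largest of the 8 members. Socs1, whose product restrains interferon gamma and interleukin 2 signalling through the JAKs, stood at 121.34 and 106.62 TPM (114 ± 10.4 TPM). Its short locus is on chromosome 16 from 10782240 to 10785536, minus strand. Within each library Socs3 was above Socs1, by 1.197-fold and 1.053-fold, although the ranges over libraries overlapped. Over CCDS transcripts, described below, Socs3 was above Socs1 in library 1 and below it in library 2, so the order depends on the transcripts counted.

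Socs2, which encodes the inhibitor best known for growth hormone signalling, stood at 94.23 and 85.87 TPM (90.1 ± 5.91 TPM). It lies on chromosome 10 from 95385362 to 95417180, minus strand. Both values lay below those of Socs1, by 1.29-fold and 1.24-fold, with no overlap. Cish stood above Socs3 by 1.504-fold and 1.666-fold, also without overlap. The members of the upper set stood above 80.3% to 92.8% of the detected protein-coding genes.

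The lower set was led by Socs6, an adaptor-like inhibitor of receptor kinases such as KIT, at 19.56 and 17.94 TPM (18.8 ± 1.15 TPM; chromosome 18 from 88665224 to 88927481, minus strand). Socs5, known to restrain interleukin 4 receptor and epidermal growth factor receptor signalling, stood at 12.71 and 11.2 TPM (11.96 ± 1.07 TPM; chromosome 17 from 87107679 to 87137839, plus strand). Socs4, which like Socs5 is known to act on the epidermal growth factor receptor, stood at 11.45 and 11.12 TPM (11.3 ± 0.233 TPM; chromosome 14 from 47276931 to 47296102, plus strand). Socs5 was above Socs4 within each library, by 1.11-fold and 1.007-fold, with ranges that overlapped, and both lay below Socs6 in each.

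Socs7, whose product is known to bind the adaptor NCK and insulin pathway proteins, was lowest. It reached 1.01 TPM in the first library and 1.64 TPM in the second (1.33 ± 0.446 TPM), on chromosome 11 from 97362551 to 97398542, plus strand. Its library 1 value was barely above the detection minimum, and its mean exceeded that of 0.964% of the detected protein-coding genes. The counts behind it were 133 and 194 estimated counts, against 10029.87 and 8674.57 for Cish. A bulk level cannot tell a few cells with much RNA from many cells with little.

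The labelled cell type was checked against its markers. All 7 Treg markers and all 6 T cell markers were detected, with a mean of at least 109.5 TPM for each Treg marker. Markers of other cells were lower in sum. The 5 B cell markers summed to 49.4 and 44.6 TPM, all 5 detected. The 6 myeloid markers summed to 20.8 and 18.2 TPM with 2 detected, and the 4 natural killer markers to 5.05 and 2.95 TPM with 2 detected and Ncr1 at 0 in both libraries. The 2 CD8 markers, both detected, summed to 25.8 and 26.1 TPM. The 5 red cell markers, all detected, summed to 383 and 351 TPM. Of these, Hba-a2 and Hbb-bs, with means of 133.6 and 127.8 TPM, lay above Foxp3, the lowest Treg marker, and the others below it. The part of these other cell types in the levels of the CIS and SOCS genes was not tested.

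The transcript tables changed the picture for Cish. Of the 40 annotated transcripts of the 8 members, 14 carry the CCDS coding sequence, the coding sequence on which several annotation groups have settled, and 24 took more than 5% of their gene's TPM in either library. Summed over CCDS transcripts, a measure chosen after the values were seen, Cish was at 37.0 and 38.7 TPM, below Socs3 at 135 and 103 TPM, Socs1 at 121 and 107 TPM and Socs2 at 78.0 and 71.6 TPM. The CCDS share of TPM was 16.9% and 20.7% for Cish, 100.0% for Socs1 in each library, 92.8% and 91.4% for Socs3, and 82.8% and 83.4% for Socs2. As the deposited estimates divide the reads among transcripts, the first place of Cish rests on those that do not carry the 771-base coding sequence of CIS.

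Cish-204 took the largest share of Cish TPM, 35.95 ± 1.09%, at 76.87 and 68.68 TPM. It is annotated as protein-coding but skips the 221-base exon 2, and its annotated reading frame is 186 bases long. Cish-205, a processed transcript of 371 bases with no reading frame, took 28.9 ± 1.18% of TPM but 4.21% of the estimated counts, since TPM divides reads by a short length. Cish-202, in which most of the first intron is exonic, took 13.3 ± 0.619% of TPM and 27.9% of the estimated counts. The full-length coding transcript Cish-201 took 18.8 ± 2.64% of TPM and 23.7% of the estimated counts.

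Cish-203, with an incomplete reading frame, was given 101.42 estimated counts in library 1 but 0 in library 2. The model's own posterior SD for it was 38.3 counts in library 1 and 19.1 in library 2. For Cish-201 that SD was 266 counts of 2191.87 in library 1 and 194 of 2222.26 in library 2. In the annotation Cish-204 runs 797 bases past the end of Cish-201, Cish-201 starts 684 bases before Cish-204, and 0 transcripts join exon 2 to the far end of Cish-204. Reads of an mRNA with such a structure would have to be divided among the listed transcripts, and whether one exists was not tested.

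**Figure D2:**
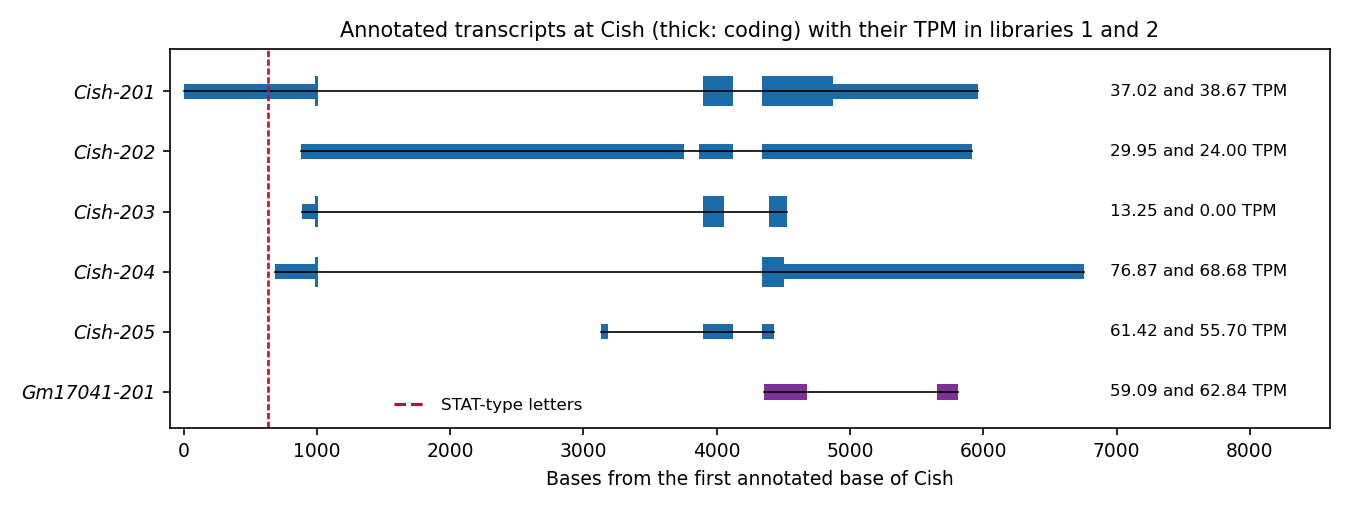
Exons (boxes, tall where coding) of the 5 annotated Cish transcripts and of the antisense gene Gm17041, against the distance in bases from the first annotated base of Cish. The TPM in libraries 1 and 2 stands at the right, and dashed lines mark the STAT-type letters. Cish-204, without exon 2, has the highest TPM of the Cish transcripts in both libraries.

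An antisense gene adds to the uncertainty at this locus. Gm17041 lies opposite to Cish from 107300380 to 107301838, and all of its 479 exonic bases fall within Cish exons. It was given 59.09 and 62.84 TPM, on 537.13 and 554.43 estimated counts, or 5.08% and 6.01% of the counts of both genes together. Whether the counting used strand is not given in the sources used here, so reads of Cish and Gm17041 cannot be told apart with certainty. The posterior SD of the Cish gene count, 39.8 and 38.3 counts, matched that of Gm17041 to the digits given, 39.8 and 38.3. The model thus divided reads between these genes, although they lie on opposite strands. Socs1, Socs3, Socs4, Socs5 and Socs7 had a posterior SD of 0 at gene level in both libraries, so the model divided none of their reads with another gene. That of Socs2 was 6.55 and 7.61 counts and that of Socs6 was 2.36 and 3.03.

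Socs3 and Socs1 had fewer transcripts than Cish, 3 for Socs3 and 2 for Socs1 against 5. Socs3-201, with a 675-base coding sequence in 1 exon, took 92.1 ± 0.953% of Socs3 TPM and 99.0% of its estimated counts, and the 246-base noncoding Socs3-203 took 4.79 ± 0.576% of TPM. Both transcripts of Socs1 carry the same 636-base coding sequence, and Socs1-201 took 56.8 ± 1.12% and Socs1-202 43.3 ± 1.12% of TPM. The split between them had a posterior SD of 286 counts in library 1 and 224 in library 2, while the gene's total did not depend on it.

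Socs2 was divided among 5 transcripts above 5%, led by Socs2-201 at 39.6 ± 0.836% and the shorter Socs2-202 at 29.9 ± 1.05%. Socs2-201, Socs2-202, Socs2-213 and Socs2-214 share a 594-base coding sequence. Socs2-214 had 348.51 and 48.96 estimated counts, while Socs2-213 had 267.81 and 426.41, so these transcripts, which differ in their first exons, differed in opposite directions between libraries of 1 biosample, with posterior SDs of 87.0 to 109 counts. The sum over CCDS transcripts moved far less, at 78.0 and 71.6 TPM. The noncoding Socs2-207 took 7.65 ± 1.26% of TPM.

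**Figure D3:**
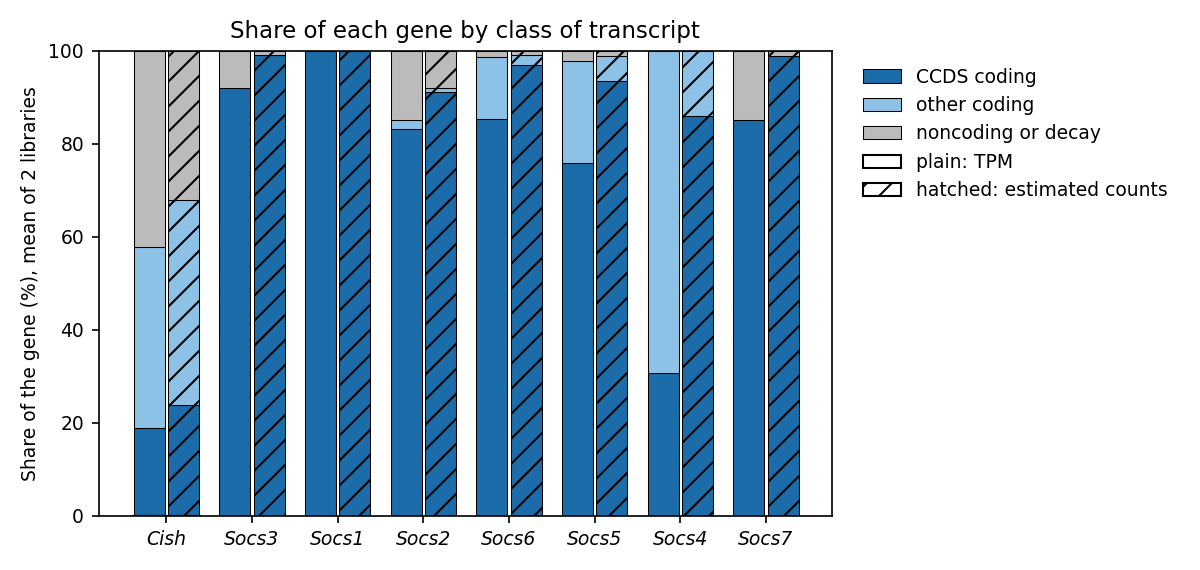
Share of each gene, in percent and as the mean of the 2 libraries, taken by CCDS coding, other coding and noncoding or decay transcripts, by TPM (plain bars) and by estimated counts (hatched bars). Cish has the lowest CCDS share by either measure, and Socs4 has a low share by TPM and a high one by counts.

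Socs4 also changed with the measure. Its short transcript Socs4-202, of 538 bases with an incomplete reading frame, took 69.4 ± 0.0691% of TPM, and the 6877-base Socs4-201, which holds the 1308-base coding sequence, took 30.6 ± 0.0691%. By estimated counts Socs4-201 took 86.0%. Over CCDS transcripts Socs4 stood at 3.50 and 3.41 TPM, below Socs5 at 9.42 and 8.71 TPM without overlap, although the gene levels of both overlapped. Socs5-201 took 75.9 ± 2.58% of Socs5 TPM, and Socs5-203, with an incomplete reading frame, 21.9 ± 2.24%.

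Socs6 was divided among Socs6-202 at 46.6 ± 4.36%, Socs6-203 at 28.4 ± 8.64% and Socs6-201 at 10.4 ± 1.63% of TPM, which share a 1599-base coding sequence. The incomplete Socs6-208 took 12.6 ± 3.98%. For Socs7 the 1737-base coding sequence of Socs7-201, spread over 9 exons, took 85.2 ± 5.58% of TPM, and Socs7-202, a noncoding transcript, 14.8 ± 5.58% on 1.1 and 2.87 estimated counts. Socs7 over CCDS transcripts was at 0.9 and 1.34 TPM, so library 1 lay below the detection minimum. The coding sequence lies within 1 exon in Socs1, Socs3, Socs4, Socs5 and Socs6, in 2 exons in Socs2 and in 3 in Cish.

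The 3′ regions were compared in length and in ATTTA matches because ATTTA, the core of AU-rich elements, is known from short-lived mRNAs. Only CCDS transcripts were used, which for Cish is Cish-201, so the 797 bases by which Cish-204 runs past it were not searched. Among CCDS transcripts Socs4 and Socs7 had the longest 3′ regions, 5182 and 5184 bases, and Cish the shortest, 1087 bases. The median was 925 bases over all 19759 genes. Socs4 held 17 ATTTA matches, Cish 3 and Socs3 4, which is 3.28, 2.76 and 2.71 per 1000 bases. Socs1 held 0 in 1993 bases. Over 18605 genes with a 3′ region of at least 100 bases the median was 1.35 per 1000 bases and the upper quartile 2.79, so Socs4 lay above that quartile and the others did not. Socs2, Socs5, Socs6 and Socs7 held 1.72, 1.54, 2.49 and 0.965 per 1000 bases.

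The technical libraries were compared to see how well each member's level is fixed. Estimated counts were rounded and each gene's pair was put to a two-sided exact binomial test with Benjamini-Hochberg adjustment over 18746 genes, which covers counting error only. Of the 8 members, all above the minimum summed count of 10, 4 passed at 0.05, while 36.5% of all tested genes did, or 20.2% of 31928 genes with no filter beyond 1 count. Higher in library 1 were 3 members, against 19.2% of all genes, and higher in library 2 was 1, against 17.2%. The members' share passing, 4 of 8, is to be read against that background, where differences beyond counting error are common. The background spans all counts, and 8311 of the 18746 genes had at least 1000 summed counts. The binomial test finds smaller differences at higher counts, and the share passing among genes of like count was not taken.

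Socs3 had 7195 and 5328 estimated counts, a log2 ratio (library 1 over library 2) of 0.32 with a 95% counting interval of 0.27 to 0.37 (exact binomial test, adjusted p = 1.36e-32). Socs1 had 7152 and 6104 counts, a log2 ratio of 0.11 (0.06 to 0.16; exact binomial adjusted p = 4.92e-05). Cish, with 10030 and 8675 counts after rounding, had a log2 ratio of 0.09 (0.05 to 0.14; exact binomial adjusted p = 6.09e-05). These 3 genes were higher in library 1, Socs3 by the most.

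Socs7 had 133 counts in library 1 and 194 in library 2, a log2 ratio of -0.66 (-0.99 to -0.33; exact binomial adjusted p = 0.000323), and so was higher in library 2. The log2 ratios of Socs2, Socs4, Socs5 and Socs6 lay between -0.03 and 0.08 and did not pass, with adjusted p between 0.0996 for Socs2 and 0.834 for Socs4 in the exact binomial test. The members' median log2 ratio was 0.07, beside 0.01 for the 8311 tested genes with at least 1000 summed counts, whose quartiles were -0.09 and 0.11. Socs3 lay above those quartiles, and Socs1, at 0.114, just above the upper one.

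With edgeR's exact test and the common dispersion of both libraries, which allows a coefficient of variation of 15.1%, 0 of the 8 members passed, 0 had an unadjusted p under 0.05, and 2.99% of all genes passed. The adjusted p of that edgeR test was 1 for Socs3, Socs1 and Cish and 0.561 for Socs7. The dispersion came from the difference between these same libraries, so the lack of calls does not show that the members were equal.

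**Figure D4:**
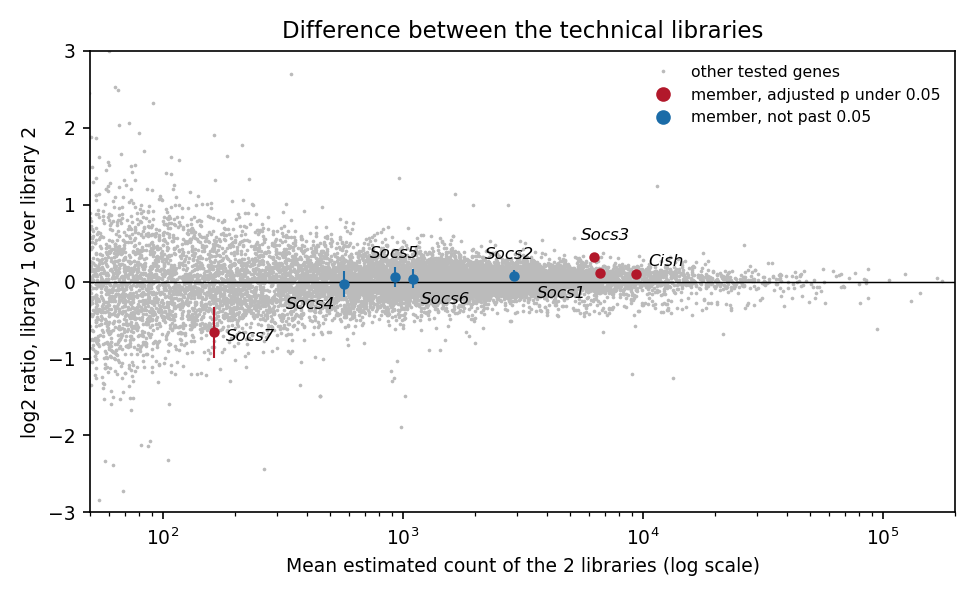
Log2 ratio of library 1 over library 2 against the mean estimated count (log axis) for the tested genes, with the 8 members labelled and their 95% counting intervals as bars. Genes beyond the axes are not drawn. Socs3 lies above the centre of the genes of like count and Socs7 below 0.

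The second deposited gene table, of whole-number read counts on GENCODE M4, gave another ranking. Cish stayed highest with 1434 counts in library 1 and 1361 in library 2, then Socs1 with 1232 and 1190 and Socs3 with 1064 and 900. Socs2, with 3114.65 and 2726.85 estimated counts above each member of the lower set, had 229 and 220 M4 counts, fewer than Socs4 at 313 and 304 or Socs5 at 324 and 292. These counts are not corrected for length and so do not compare levels between genes. Socs6 had 230 and 181 M4 counts and Socs7 23 and 37.

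As a share of the estimated count, the M4 count was 7.35% and 8.07% for Socs2, the lowest of the family in both libraries, and 53.2% and 54.8% for Socs4, the highest. Cish stood at 14.3% and 15.7%, Socs3 at 14.8% and 16.9%, and Socs1 at 17.2% and 19.5%. Among protein-coding genes with 1000 to 10000 estimated counts the median share was 41.3% in library 1 and 42.0% in library 2, with lower quartiles of 27.0% and 27.3%. Genes were binned at 100 to 1000, 1000 to 10000 and 10000 to 30000 estimated counts. In library 1, 6 members lay below the lower quartile of their bin, and in library 2, 7 did. These numbers depend on the bin edges, since the library 1 medians fell from 52.7% to 41.3% and 17.2% over the bins. Socs3 and Socs1 lay above the library 1 lower quartile of the highest bin, 8.76%, and Socs2 did not. Cish was inside its range in library 1, where its count of just over 10000 put it in that highest bin. Its higher share in library 2 fell below, in the bin of 1000 to 10000. The reason for the low shares was not tested. With M4 counts 0 of the 8 members passed the exact binomial test between libraries, against 14.3% of 12186 genes, and 1, Socs3, had an unadjusted p under 0.05. Its M4 log2 ratio was 0.15.

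**Figure D5:**
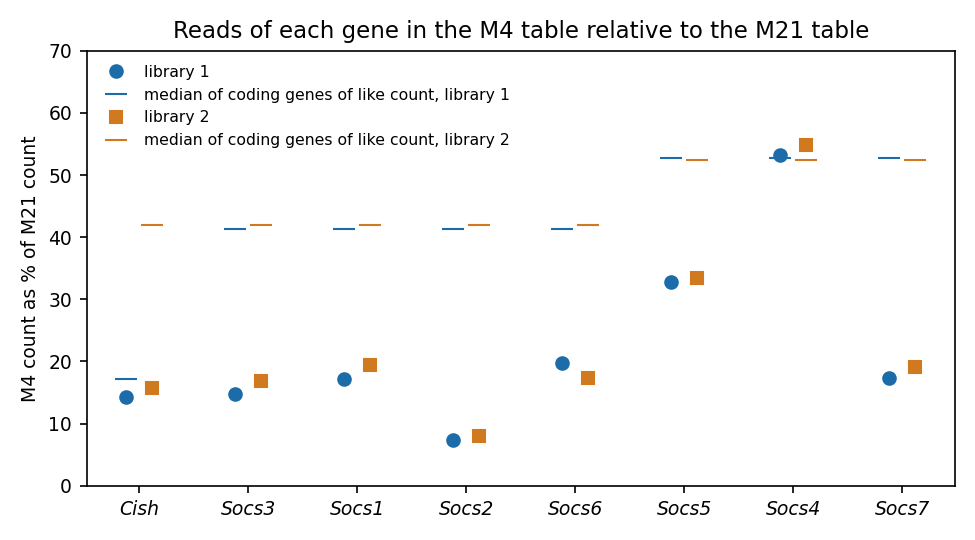
M4 read count as a percent of the M21 estimated count for each gene, in library 1 (circles) and library 2 (squares). Short lines give the median of protein-coding genes in the same bin of estimated counts. Socs4, at 53.2% and 54.8%, lies near the median, and Socs2, at 7.35% and 8.07%, has the lowest share.

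The partners of the family were counted from lists, as levels in TPM. The list of ubiquitin ligase core genes, which holds Cul2, Rbx1 and Ube2m beside Cul5 and Rnf7, was detected in full, 10 of 10. Its median was 103 TPM. Levels ran from 33.6 ± 0.318 TPM for Cul5, the cullin that SOCS boxes bind, to 511 ± 22.8 TPM for Elob, which encodes elongin B. Cul5, at 33.85 and 33.4 TPM, lay below each member of the upper set and above each of the lower set in both libraries. Of 30 other SOCS box genes, the ankyrin-repeat ASB, SPRY-domain SPSB, WSB and related genes, 18 were detected and 6 were at 0 in both libraries, with a median of 5.35 TPM over all 30. The highest was Wsb1 at 102 ± 5.07 TPM, below Cish, Socs3 and Socs1.

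The pathway that the family restrains was detected in full for kinases and STATs and in part for receptors and ligands. All 4 JAK kinases and all 7 STAT factors were detected, with medians of 99.3 TPM for the JAKs and 145.5 TPM for the STATs, as were all 13 other brakes on JAK-STAT signalling, such as PIAS proteins and tyrosine phosphatases, with a median of 70.02 TPM. Of 34 cytokine receptor genes 22 were detected, and their median over all 34 was 22.0 TPM. Ligands were rarer: 5 of 26 were detected and 11 were at 0 in both libraries. Of 14 growth hormone class and receptor kinase genes, the receptors on which Socs2 and Socs4 to Socs7 are best known to act, 3 were detected, with a median of 0.27 TPM over all 14. Among these 3, Insr at 20.01 and 21.94 TPM and Igf1r at 14.3 and 14.71 TPM were the higher. Csf1r, the third, is also one of the myeloid markers.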

How the data were processed

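PolyA-selected RNA-seq of Treg cells was measured in 2 technical libraries of 1 biosample. Nothing says that the libraries came from separate cells, so no p-value covers spread between animals. The binomial p-values cover counting error only, and those of edgeR's exact test use the dispersion between these technical libraries. The authors deposited, per the file headers, estimated counts, TPM and FPKM per gene and transcript, with posterior means and SDs, made from transcriptome alignments on mm10 with GENCODE M21. A percent of the gene's TPM was deposited by the authors for each transcript; shares here were recomputed from TPM and estimated counts. The authors also deposited whole-number gene read counts made from genome alignments on GENCODE M4, totalling 9576557 and 8937887. The sources used here name no aligner, quantifier or counter.

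Rows naming no gene took 0.197% and 0.212% of the estimated counts and were left out. Sampling noise did not cover the difference between libraries (chi-square 12.9 per gene, 18746 genes), so both were kept. Estimated counts were rounded, library sizes were scaled by TMM (edgeR 4.0.16, R 4.3.3) over genes with 10 or more counts in sum, and log2 ratios used a prior count of 0.5. A quasi-likelihood fit was not possible, since 1 library a side leaves no residual degrees of freedom. The binomial and edgeR exact tests were tested on simulated data. Intervals cover counting error only, since PCR copies are not independent molecules.

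Percentiles and medians are over means of both libraries. Promoter windows and the microRNA came from RefSeq on GRCm38.p6, gene structures and 3′ regions from GENCODE M21 on GRCm38. The 3′ region of a gene is the longest among its CCDS transcripts. Named were all 8 members and every transcript of them above 5% of its gene's TPM in either library. No gene was named for a similar pattern, since 2 technical libraries give none. The members and lists were chosen with earlier results of these data known. Alternatives covered unit, detection minimum, each library alone, normalization (with DESeq2 1.42.0 size factors), filter, prior count, error model and gene table.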

Additional observations from a re-analysis of the deposited data

How the results depend on the processing

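The number of members detected was 8 with posterior mean TPM. Either library alone also gave 8 (8 to 8 without 1 of the replicates), which was fixed in advance, since all 8 were detected in both. The number was 7 by FPKM, at a minimum of 5 TPM or 10 TPM, or over CCDS transcripts only, an alternative added after seeing the data. In each case of 7, Socs7 was the member lost. The number called between libraries, 4, was also 4 with library totals, DESeq2 size factors or no filter beyond 1 count. A prior count of 5 enters the log2 ratio only, not the binomial test, so it could not change the number called. That number was 0 with edgeR's exact test and the common dispersion, and 0 with M4 read counts. On M4 counts the log2 ratio turned to -0.011 for Cish and to -0.037 for Socs1, and the cause was not tested. Over CCDS transcripts the level of 5 members moved by more than their SD, Cish to 37.8 TPM and Socs4 to 3.46 TPM. By estimated counts in place of TPM the shares of 17 of 24 named transcripts moved by more than their SD. No paired analysis was possible because there is 1 group. Levels of Socs7 are limited by its 133 and 194 counts.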
